A study of Mus musculus with 8 samples.

Results

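The B cell receptor and identity genes followed here are 9 genes: Cd79a, Cd79b, Ms4a1, Cd22, Cd72, Blk, Pou2af1, Spib and Pax5. They were chosen by gene symbol, and every probe set whose only symbol in the platform annotation is 1 of the 9 was taken. This gave 12 probe sets of the 45037 tested, and 9 of 18173 genes. Cd22, Ms4a1 and Pax5 have 2 probe sets each, and each of the other 6 genes has 1. The samples were whole distal trachea and carina from female C57Bl/6 mice, 4 of them old, at 14 months, and 4 young, at 2 months of age, with 1 Affymetrix Mouse Genome 430 2.0 array per mouse. No treatment or transgene is given for either age. Animals are named by their numbers in the labels, which are 1, 2, 5 and 6 for old and 3, 4, 7 and 8 for young mice.

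B cells recognize antigen through a surface immunoglobulin that cannot signal alone. It is carried to the membrane with a heterodimer of CD79A and CD79B, whose tails are phosphorylated by Src family kinases such as BLK, while coreceptors such as CD22 and CD72 dampen the response. Pax5 keeps cells committed to the B lineage, and Spib and Pou2af1 act in the nucleus of mature B cells. Pou2af1 stays on when a B cell becomes an antibody-secreting plasma cell, whereas Pax5, Ms4a1 and Spib are turned down at that step. In whole tissue, more cells of a type and more RNA per cell cannot be told apart.

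The deposited value of a probe set is a signal on a linear scale in arbitrary units, with a mean of 500.002 on each array when the top and bottom 2% are left out, and medians between 150 and 161. A log2 difference, or log2 fold change, is the mean log2 signal of old mice less that of young mice, with its standard error (SE) from limma, and an adjusted p is a Benjamini-Hochberg value over all 45037 probe sets unless all genes are named. The table has no detection calls, so a low signal cannot be called absent. Probe sets are called bright or dim by whether their mean log2 signal lies above or below the median probe set, at a signal of 151. Of the 12 B cell probe sets, 3 are bright by this measure (Cd22 1419768_at, Cd72 and Spib) and 9 are dim. The median SD of log2 signal within an age was 0.157 over bright and 0.491 over dim probe sets. The airway tissue itself was evident on all arrays, since the secretoglobin Scgb1a1 of club cells had a signal of 25660 to 31080 in old and 26940 to 30910 in young mice.

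All 12 B cell probe sets had higher mean log2 signals in old than in young tracheas. For 5 of them, Cd79b, Ms4a1 1423226_at, Cd72, Pou2af1 and Spib, the lowest old mouse lay above the highest young mouse, and none ran the other way. Over all probe sets the ages did not overlap in 4.05% with old mice higher and in 3.75% with old mice lower. None of the 12 passed an adjusted p under 0.05 from limma in either direction, a threshold passed by 0.0533% of all probe sets for higher and 0.0178% for lower signals in the old animals. An unadjusted p below 0.05 was reached by 7 of the 12, all higher, against 5.76% and 5.41% of all probe sets. With a fold above 2 added, 4 were higher and 0 lower (Cd79b, Ms4a1 1423226_at, Pou2af1 and Spib), against 1.19% and 0.802% of all probe sets. An ordinary test without moderation of the variance also gave 0 and 4 at these adjusted and unadjusted thresholds. The median log2 difference was 1.02 over the 12 probe sets and -0.01 over all probe sets.

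**Figure D1:**
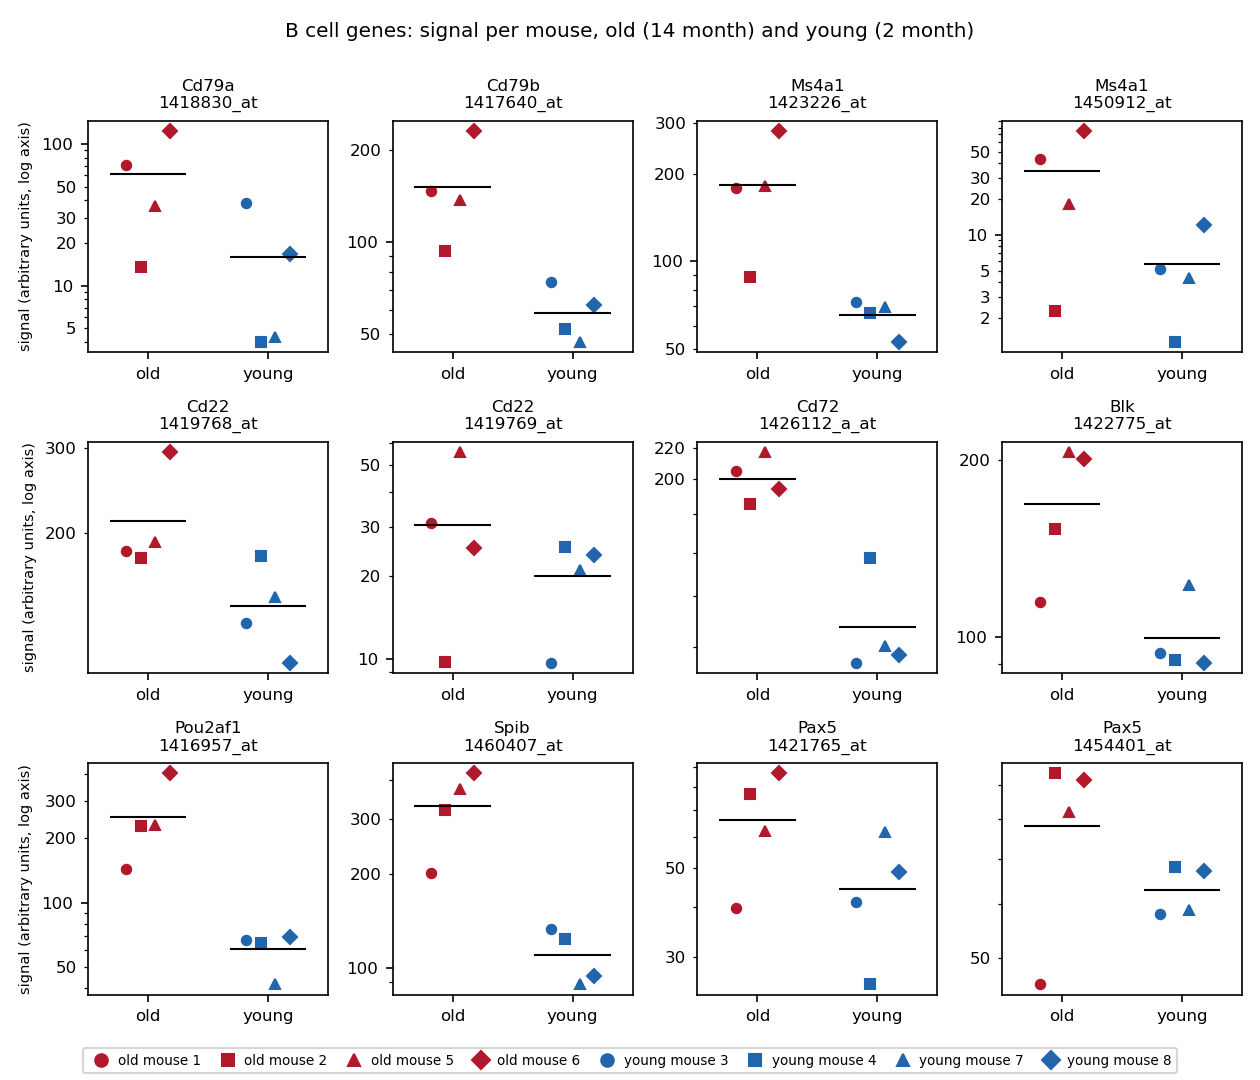
Signal of the 12 B cell probe sets in each mouse (arbitrary units, log axis), with old mice (14 month, red) left of young mice (2 month, blue). Each symbol is 1 mouse and each line the mean signal of 4 mice, and the ages do not overlap for Cd79b, Ms4a1 1423226_at, Cd72, Pou2af1 and Spib.

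The 2 subunits that carry the receptor's signal differed in how well they were measured. Cd79a (1418830_at) had signals of 70.5, 13.6, 36.2 and 123 in old mice 1, 2, 5 and 6, against 38.5, 4.03, 4.38 and 16.7 in young mice 3, 4, 7 and 8. Old mouse 2 lay below young mice 3 and 8, so the ages overlapped. Cd79a had a log2 difference of 2.14 (SE 0.93, adjusted p = 0.456). Its mean log2 signal was at percentile 11.3 of all probe sets, and the 95% interval of its difference ran between -0.03 and 4.31. When each mouse was left out in turn, the difference of Cd79a was between 1.66 (old mouse 6 left out) and 2.77 (young mouse 3 left out), and it passed an unadjusted p under 0.05 in 2 of these 8 fits, those that left out old mouse 2 (2.72) or young mouse 3. Cd79b (1417640_at), its partner, had signals of 146.5, 93.3, 137.5 and 231 in old mice, against 74.0, 52.0, 47.3 and 62.2 in young mice. The lowest old mouse was thus above the highest young mouse. This gave a log2 difference of 1.32 (SE 0.28, adjusted p = 0.158; exact permutation test, two-sided, p = 0.0286, the smallest that 4 mice against 4 allow).

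Ms4a1, which encodes the B cell surface protein CD20, was measured by 2 probe sets of very different brightness. With 1423226_at the signals were 179.5, 88.4, 182 and 281 in old mice, against 72.6, 66.3, 69.5 and 52.9 in young mice. The ages did not overlap, and the old mice were far more spread than the young mice, with an SD of log2 signal of 0.69 in old and 0.20 in young mice. Ms4a1 thus differed by 1.38 on the log2 scale (SE 0.33, adjusted p = 0.204). With 1450912_at the signals were 43.3, 2.27, 18.1 and 74.8 in old mice, against 5.20, 1.26, 4.32 and 12.03 in young mice. Here the ages overlapped, and the log2 difference of 2.15 carried an SE of 1.15 (adjusted p = 0.547). It ran between 1.5 when old mouse 6 was left out and 3.18 when old mouse 2 was, and passed an unadjusted p under 0.05 only in that last fit of the 8. Both probe sets placed old mouse 6 highest and old mouse 2 lowest among the old mice.

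The inhibitory coreceptors showed smaller differences. Cd72 (1426112_a_at), a C-type lectin of the B cell surface, had signals of 205, 186, 217 and 194 in old mice, against 114, 157.5, 120.4 and 117 in young mice. It was the most even of the 12 in old mice, with an SD of log2 signal of 0.10, and the ages did not overlap. Its log2 difference of 0.66 (SE 0.13, adjusted p = 0.133) corresponds to a ratio of 1.59. Cd22 (1419768_at), a sialic acid-binding lectin that recruits phosphatases to the receptor, had signals of 184, 177, 191 and 293 in old mice, against 130.3, 179, 147 and 108 in young mice. Old mouse 6 stood above the other old mice, and old mouse 2 lay just below young mouse 4. The difference of Cd22 was 0.58 on the log2 scale (SE 0.22, adjusted p = 0.387). It was 0.41 without old mouse 6, 0.55 without young mouse 3 and 0.45 without young mouse 8, and in each case no longer passed an unadjusted p under 0.05. The other Cd22 probe set, 1419769_at, was dim, between 9.83 and 55.8 in old and 9.72 and 25.4 in young mice, with a log2 difference of 0.45 (SE 0.55, adjusted p = 0.813), and between 0.07 and 0.91 when each mouse was left out.

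Blk (1422775_at), the Src family kinase named for B lymphocytes, had signals of 114.5, 153, 206 and 200.4 in old mice, against 93.8, 91.3, 122 and 90.3 in young mice. Only old mouse 1 and young mouse 7 overlapped. The difference of Blk was 0.73 on the log2 scale (SE 0.21, adjusted p = 0.275; exact permutation test, two-sided, p = 0.0571).

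The largest differences relative to their errors were those of Pou2af1 and Spib. Pou2af1 (1416957_at) encodes OBF-1, also called BOB.1 or OCA-B, a coactivator that has no DNA binding of its own in the absence of POU2F proteins. Its signals were 144, 228, 231.5 and 402 in old mice, against 67.4, 65.2, 41.8 and 69.3 in young mice. The lowest old mouse was above every young mouse by a wide margin. Pou2af1 was 3.93-fold higher, a log2 difference of 1.98 (SE 0.32, adjusted p = 0.0970 over all probe sets and 0.0540 over all genes). The study selected Pou2af1 as higher in old mice on these same arrays, so its direction here is not independent evidence. It was also measured by quantitative PCR in the study, with these primers, which are shown because they place that assay on the gene:
Pou2af1_Fw: CACGCCCAGTCACATTAAAG
Pou2af1_rev: GACTCGAACACCCTGGTATG
The forward primer matches bases 27 to 46 after the annotated start of the gene in RefSeq (GRCm38.p6).

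Spib (1460407_at) encodes Spi-B, a transcription factor of the ETS family that is restricted to lymphoid cells, plasmacytoid dendritic cells and the microfold cells that cover mucosal lymphoid tissue. Its signals were 201.5, 322, 377 and 421 in old mice, against 133, 123.5, 88.6 and 93.9 in young mice. The ages did not overlap, and the signal was bright. Spib was 2.95-fold higher, a log2 difference of 1.56 (SE 0.25, adjusted p = 0.0975 over all probe sets and 0.0543 over all genes). When the test was run on the bright probe sets alone, which are fewer and less variable, Spib had an adjusted p of 0.0118 and Cd72 of 0.0215. Brightness was set by the mean over all mice, so the old mice helped to decide which probe sets were kept. The mean signals of Spib and Cd72 in young mice, 110 and 127, lay below the cut between bright and dim. Those in old mice, 330 and 200, lay above it. With a variance prior that follows the signal and is robust to outliers, Cd79b, Pou2af1 and Spib passed, with an adjusted p of 0.0428, 0.00728 and 0.00736.

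Pax5, the factor that commits cells to the B lineage, included the smallest difference of the 12 probe sets. With 1454401_at the signals were 45.7, 93.6, 82.2 and 91.6 in old mice, against 58.1, 68.0, 58.8 and 67.1 in young mice. Old mouse 1 was below all young mice and the other 3 old mice were above them. The difference of this probe set was 0.26 on the log2 scale (SE 0.23, adjusted p = 0.731), and 0.50 without old mouse 1. With 1421765_at the signals were 39.8, 76.7, 62.2 and 86.5 in old mice, against 41.1, 25.7, 61.6 and 49.0 in young mice. Old mouse 1 was again the lowest old mouse, the ages overlapped, and the difference was 0.59 (SE 0.33, adjusted p = 0.562), or 0.82 without old mouse 1. Without that mouse both probe sets passed an unadjusted p under 0.05, and neither passed when any other mouse was left out. In those fits the difference fell as low as 0.16 for 1454401_at (old mouse 2 left out) and 0.35 for 1421765_at (young mouse 4 left out).

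**Figure D2:**
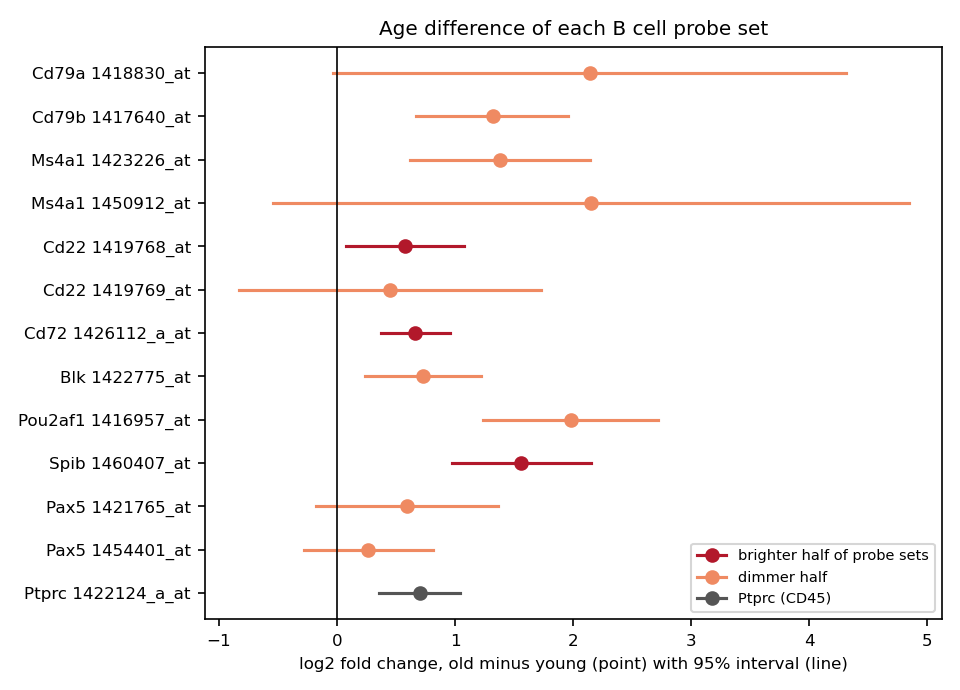
Log2 difference of each B cell probe set and of the pan-leukocyte gene Ptprc, old minus young mice (point), with its 95% interval (line) on the horizontal axis. Bright probe sets are dark red, dim ones orange and Ptprc grey, and the intervals of Cd79a, Ms4a1 1450912_at, Cd22 1419769_at and both Pax5 probe sets include 0.

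The old mice were not alike in these genes. Old mouse 6 was the highest of the old mice in 8 of the 12 probe sets, whereas it was the highest in 24.6% of all probe sets. Old mouse 1 or 2 was the lowest of the old mice in all 12, against 49.5% of all probe sets. Which of these mice was the lowest differed between the genes. Old mouse 2 was the lowest for the 7 probe sets of the surface genes Cd79a, Cd79b, Ms4a1, Cd22 and Cd72, and old mouse 1 for the 5 probe sets of Blk, Pou2af1, Spib and Pax5. This split was noticed in the values and has no test. It rests on close values for Cd22 1419768_at (177 in old mouse 2, 184 in old mouse 1) and Cd72 (186 in old mouse 2, 194 in old mouse 6). Other genes of the B lineage did not all follow it. Of surface genes, old mouse 2 was the lowest for Tnfrsf13b and Ltb but old mouse 1 for Ly6d. For the transcription factors Ikzf1 and Irf8 the lowest was old mouse 2. The SD of log2 signal was larger in old than in young mice in 9 of the 12 probe sets, and in 47.1% of all probe sets. The mean profile of the 9 genes, each centred on its mean over the 8 mice, was 0.37, 0.21, 0.63 and 1.15 in old mice 1, 2, 5 and 6, against -0.32, -0.64, -0.81 and -0.59 in young mice 3, 4, 7 and 8.

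**Figure D3:**
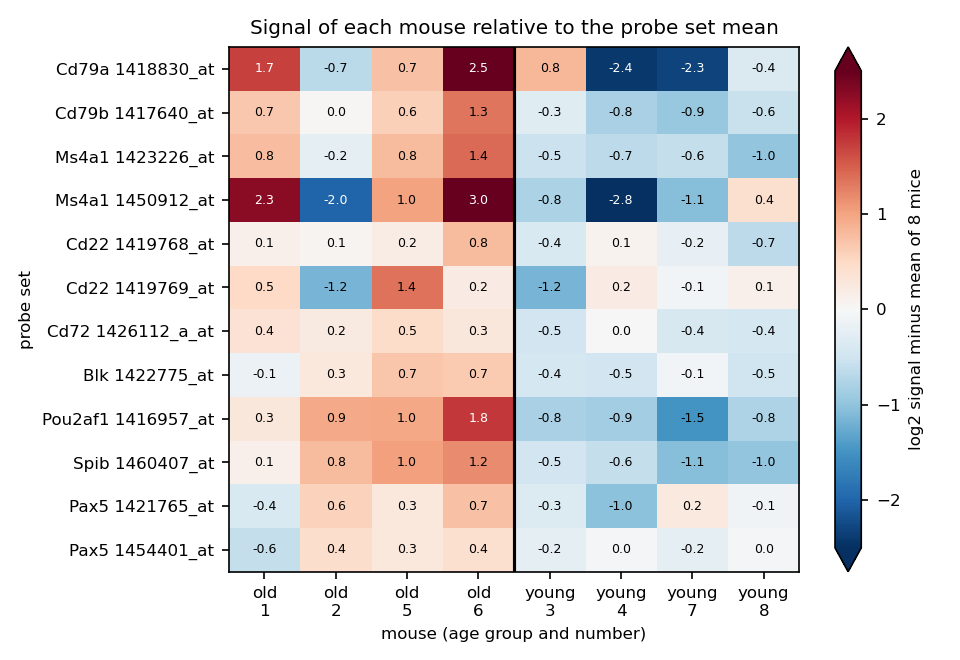
Log2 signal of each mouse minus the mean of the 8 mice for the 12 B cell probe sets, with old mice left of young mice and red for higher, blue for lower. Old mouse 6 is the highest old mouse in 8 of 12 probe sets, old mouse 2 the lowest for the surface genes and old mouse 1 the lowest for Blk, Pou2af1, Spib and Pax5.

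Old mouse 6 also stood apart in Alas2 and Ppbp, markers of red blood cells and platelets. Alas2, the heme synthesis enzyme of erythroid cells, had signals of 240.4, 131.3, 111.1 and 1084 in old mice 1, 2, 5 and 6, against 127.2, 93.2, 28.3 and 45.4 in young mice, and the platelet chemokine Ppbp had 454.4, 241.8, 31.5 and 1232 in old mice, against 96.6, 37.7, 54.8 and 56.04 in young mice. Old mouse 6 was the highest old mouse for the other measured genes of this list as well. For Hba-a1 (75.9, against 70.7 in old mouse 2) and Itga2b (310, against 299 in old mouse 2) it was so only narrowly. All these genes were named after their values were seen. All 6 red cell and platelet genes measured had positive log2 differences, with a median of 0.43, and their summed signal lay between 2410 and 5170 in old and 1940 and 2340 in young mice. Without old mouse 6, 4 B cell probe sets passed the fold and unadjusted p and 5 had ages that did not overlap, the same counts as with it, and the median log2 difference was 0.88.

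The pan-leukocyte gene Ptprc (CD45) gives a measure of all white cells in the tissue. Its brightest probe set had signals of 1702, 1762, 2276 and 2432 in old mice, against 1208, 1433, 1188 and 1163 in young mice, which is 0.70 on the log2 scale (SE 0.15). When the log2 signal of Ptprc was subtracted from that of each B cell probe set within each mouse, Pou2af1 kept a difference between ages of 1.28 and Spib of 0.86, with no overlap of the ages (p = 0.0286 for both by a two-sided exact permutation test, the smallest possible). For the other 10 of the 12 the ages overlapped on this scale. The share of all probe sets without overlap on this scale was not computed, so these counts have no background beside them. Ms4a1 1423226_at was at 0.68 (exact permutation p = 0.0857) and Cd79b at 0.62 (exact permutation p = 0.143). The dim probe sets of Cd79a and Ms4a1 (1450912_at) were at 1.44 and 1.45 (exact permutation p = 0.2 and 0.314). Furthest below the difference of Ptprc were Pax5 1454401_at at -0.44 and Cd22 1419769_at at -0.25. Blk was at 0.03, Cd72 at -0.03, Pax5 1421765_at at -0.11 and Cd22 1419768_at at -0.12. The differences of these probe sets were thus close in size to that of the Ptprc probe set used. A second, dim Ptprc probe set lay between 59.3 and 81.5 in old and 49.7 and 77.6 in young mice, with overlapping ages and a log2 difference of 0.23 (SE 0.18), and was not used for this scale. The 12 comparisons share the Ptprc values, and their p-values are not adjusted.

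Among 17 other genes of the B cell surface, 14 were higher and 3 lower in mean log2 signal, with a median log2 difference of 0.38, against 0 over all genes. Of these 1 passed the adjusted p over all genes with old mice higher and 0 with old mice lower, where 0.341% of all genes were higher and 0.176% lower. The ages did not overlap for 3 that were higher and 1 that was lower in old mice, against 4.95% and 5.11% of all genes. The gene that passed was Ly6d, which is also made by stratified epithelia, with signals of 255.4, 349.9, 336.2 and 436 in old mice, against 104.4, 105.1, 91.9 and 138.6 in young mice (log2 difference 1.64, SE 0.19, adjusted p = 0.0263 over all genes). Its adjusted p was 0.0775 without old mouse 2, 0.0812 without old mouse 5, 0.0834, 0.0787 and 0.0777 without young mouse 3, 4 or 7, and 0.0501 without moderation of the variance. Tnfrsf13b (TACI), a receptor for the B cell survival factors BAFF and APRIL, had a log2 difference of 0.77 (SE 0.20, adjusted p = 0.156 over all genes) and did not overlap between ages. Ltb (lymphotoxin beta), which B and T cells both make, was at 1.0 (SE 0.29, adjusted p = 0.182 over all genes).

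The enzymes and adaptors downstream of the receptor, most of which other leukocytes also use, had smaller differences than the B cell genes. Of 21 measured, 16 had a positive log2 difference and 5 a negative one, with a median of 0.12, and none passed the adjusted p or had ages that did not overlap. Prkcb, the protein kinase C isoform that links the receptor to NF-kappaB, was at 0.45 (SE 0.16, adjusted p = 0.265 over all genes) and Syk, the kinase that binds the CD79 tails, at 0.48 (SE 0.24, adjusted p = 0.412 over all genes). Of 15 other transcription factors of the B lineage, 8 were positive and 7 negative, with a median of 0, and none passed the adjusted p. Ikzf3 (Aiolos), a factor of mature lymphocytes, was dim, with signals of 154.5, 154, 279 and 277.5 in old mice, against 97.6, 113.7, 73.7 and 84.4 in young mice. It was named after its values were seen. Mef2c, which muscle and vessel cells also express, had signals of 869, 928, 973.5 and 1022 in old mice, against 1623, 1920, 1517 and 1230 in young mice, and its log2 difference was -0.71 (SE 0.14, adjusted p = 0.0810 over all genes).

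Plasma cells are the antibody-secreting end stage of the B lineage. Of 16 plasma cell genes measured, 14 were higher and 2 lower in mean log2 signal, with a median log2 difference of 0.28. The adjusted p over all genes was passed by 1 with old mice higher and by 0 with old mice lower, and the ages did not overlap for 6, all higher in old mice. Over all genes these shares were 0.341% and 0.176% for the adjusted p and 4.95% and 5.11% for ages that did not overlap. Jchain, the small chain of polymeric IgA and IgM, was the gene that passed (adjusted p = 0.0361 over all genes), with signals of 3735, 8120, 6840 and 14020 in old mice, against 261, 481, 127 and 730 in young mice. It did not pass when any 1 mouse was left out (adjusted p over all genes 0.0620 to 0.115), without moderation of the variance (0.0667) or with a term for mice 1 to 4 against mice 5 to 8 (0.0613). Mzb1, a chaperone of antibody-secreting and marginal zone B cells, had signals of 412, 429.5, 538 and 852 in old mice, against 337.5, 261, 284 and 292 in young mice, with a log2 difference of 0.87 (SE 0.23, adjusted p = 0.157 over all genes). Xbp1, the factor that expands the secretory apparatus and that secretory epithelium also uses, was at 0.26 (SE 0.09, adjusted p = 0.251 over all genes). As for Blk, Pou2af1, Spib and Pax5, old mouse 1 had the lowest signal among old mice for Jchain, Mzb1 and Xbp1. For Creld2, of the same list, the lowest was old mouse 6, and over the rest of the list the lowest old mouse varied. The share of all probe sets with old mouse 1 the lowest was not computed, so this likeness has no background beside it. Of the immunoglobulin heavy chains, the brightest Igha probe set had signals of 12220, 15650, 17010 and 14500 in old mice, against 932, 2738, 194 and 3364 in young mice. The brightest Ighm probe set had 3165, 5234, 3126 and 19350 in old mice, against 308, 236.5, 182 and 214 in young mice, with old mouse 6 the highest as for most B cell probe sets. Immunoglobulin transcripts differ in sequence between B cell clones, so a probe set can read clones unequally, and the 11 Ighm probe sets differed in fold.

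**Figure D4:**
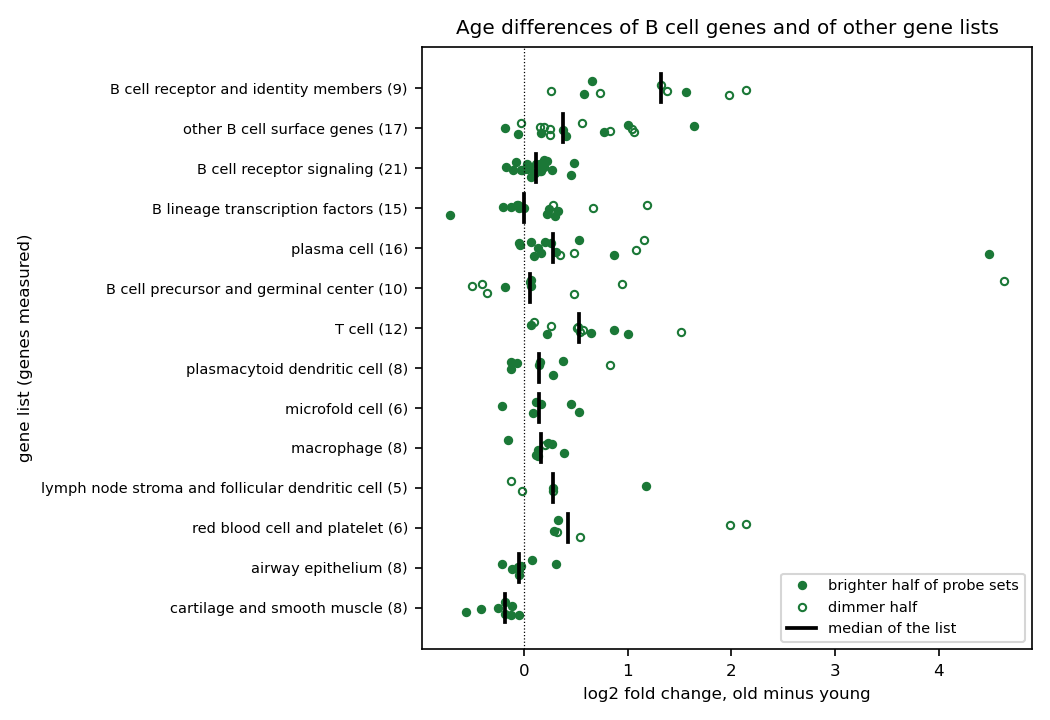
Log2 difference, old minus young mice, of single genes (points, 1 probe set per gene) in the B cell receptor and identity genes and in 13 other gene lists, with the median of each list as a black line. Filled points are bright and open points dim probe sets, and the B cell receptor and identity genes have a median of 1.32, against 0 over all genes.

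Spib and Blk are also expressed outside B cells, so the markers of other cell types are given beside them. Among 8 markers of plasmacytoid dendritic cells the median log2 difference was 0.15, 5 were positive and none passed the adjusted p. Siglech, which defines these cells, was dim, at 126.4, 130.9, 161.8 and 158.6 in old mice, against 60.9, 69.2, 87.9 and 113.3 in young mice. Its ages did not overlap, and its log2 difference of 0.83 (SE 0.20, adjusted p = 0.129 over all genes) was above that of Blk, Cd72 or Cd22 1419768_at. For the other 7 markers the ages overlapped. The summed signal of the 8 markers was 6010 to 6660 in old and 6240 to 6520 in young mice, most of it from Tcf4, which many cell types express, at 3528 to 4013 in old and 3833 to 4222 in young mice. Among 6 markers of microfold cells, 5 were positive and 1 negative, with a median of 0.15, and none passed the adjusted p or separated the ages. Tnfaip2 was at 0.53 (SE 0.20, adjusted p = 0.285 over all genes) and Ccl9 at 0.45 (SE 0.15, adjusted p = 0.237 over all genes). The negative gene was Gp2 (-0.21, SE 0.53), which was named after its values were seen. Its signals were 408, 592, 359 and 1799 in old mice, against 655, 539, 1267 and 621 in young mice. The summed signal of this list was 13300 to 15200 in old and 12400 to 12700 in young mice. Most of it came from Anxa5, at 8960 to 9708 in old and 8246 to 9122 in young mice. All 12 measured T cell markers had positive log2 differences, with a median of 0.53 and 0 past the adjusted p, and summed signals of 2580 to 3160 in old and 1990 to 2670 in young mice. The ages did not overlap for 3 of them, Lat, Cd3g and Cd3d, against 4.95% of all genes. Among 8 macrophage markers 7 were positive and the median was 0.17, with 3 whose ages did not overlap, and summed signals of 10400 to 12000 in old and 9390 to 10300 in young mice. Of 8 airway epithelial markers 2 were positive and 6 negative, with a median of -0.05, and all 8 genes of cartilage and smooth muscle were negative, with a median of -0.18. The part of any of these cell types in the B cell values was not tested.

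Of the markers that a lymph node left on the trachea would bring, Ccl21a, Ccl19 and Fdcsp were not measured. Those of high endothelial venules were dim at both ages. Glycam1, a mucin of high endothelial venules, was between 3.43 and 4.72 in old and 2.51 and 5.44 in young mice. Madcam1 and Chst4, which the same vessels express, had log2 differences of -0.02 (SE 0.32) and -0.12 (SE 0.36), and both were dim. Lyve1, which lymphatic vessels express in the trachea as well as in nodes, was bright, at 2590 ± 373 in old and 2120 ± 323 in young mice (SD, n = 4 each). Its ages overlapped, with a log2 difference of 0.28 (SE 0.15). The part of a node in the B cell values was not tested. Of the 5 genes of this list that were measured, 3 were higher and 2 lower in mean log2 signal (median 0.28), and only Cxcl13, the chemokine that draws B cells through the receptor Cxcr5, had ages that did not overlap, with signals of 473 to 836 in old and 226 to 334 in young mice.

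Among 11862 genes with a bright probe set, the 5 whose centred log2 signals over the 8 mice lay nearest to the mean profile of the B cell genes were Ltb, Mzb1, Cd209f, Cd3g and Pla2g2d. The root mean square difference over the 8 mice was 0.165 for Ltb, 0.188 for Mzb1, 0.190 for Cd209f, 0.211 for Cd3g and 0.233 for Pla2g2d. Ltb and Mzb1 are lymphocyte genes and Cd3g is a subunit of the T cell receptor complex, while Cd209f encodes a C-type lectin and Pla2g2d a secreted phospholipase of dendritic cells and macrophages. Cd209f had signals of 316, 356, 525 and 491 in old mice, against 193, 170.5, 141 and 166 in young mice. This likeness includes the difference between ages and is a description of these 8 arrays.

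The promoters of the members were read because 2 of them, Pou2af1 and Spib, act on DNA through known motifs. RefSeq promoters (GRCm38.p6, 250 bases before to 50 after the start) were found for 6 of the 9 genes: Cd79a, Cd22, Cd72, Pou2af1, Spib and Pax5. The octamer ATTTGCAT, the site of the POU2F factors that Pou2af1 joins, was in 0 of these 6 windows on either strand and in 1.74% of 32851 promoters. The core GAGGAA of the PU box, which Spi-B and its relative PU.1 bind, was in 3 of the 6 and in 28.3% of all. The ETS core GGAAG, which can overlap GAGGAA, was in 5 of the 6 and in 71.4% of all. The 3 windows with the PU box core are shown with it in capitals, as TTCCTC where it lies on the other strand, since they show where the letters of a Spi-B motif lie in Cd72 and Pou2af1, whose ages did not overlap, and in Cd79a, whose ages did:
Cd79a (chr7:24897247-24897546, + strand): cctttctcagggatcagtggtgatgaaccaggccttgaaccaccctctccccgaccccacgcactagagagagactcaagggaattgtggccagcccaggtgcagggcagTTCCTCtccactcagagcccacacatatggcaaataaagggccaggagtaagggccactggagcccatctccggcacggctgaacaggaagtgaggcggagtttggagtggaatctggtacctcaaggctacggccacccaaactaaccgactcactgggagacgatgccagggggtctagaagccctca
Cd72 (chr4:43454577-43454876, - strand): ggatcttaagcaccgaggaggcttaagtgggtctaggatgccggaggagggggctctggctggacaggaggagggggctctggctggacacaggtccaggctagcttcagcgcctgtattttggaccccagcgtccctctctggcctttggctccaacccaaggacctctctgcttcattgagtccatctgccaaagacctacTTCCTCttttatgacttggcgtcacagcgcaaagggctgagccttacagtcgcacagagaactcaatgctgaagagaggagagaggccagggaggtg
Pou2af1 (chr9:51213440-51213739, + strand): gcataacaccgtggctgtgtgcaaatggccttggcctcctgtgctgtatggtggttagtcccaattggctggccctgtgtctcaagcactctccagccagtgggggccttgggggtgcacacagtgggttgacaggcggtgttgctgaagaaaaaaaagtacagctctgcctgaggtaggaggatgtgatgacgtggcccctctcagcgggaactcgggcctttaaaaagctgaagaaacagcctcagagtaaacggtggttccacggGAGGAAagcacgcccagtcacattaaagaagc
The core starts 140 bases before the start of Cd79a, 47 bases before that of Cd72 and at base 19 after that of Pou2af1. In the Pou2af1 window the forward primer follows it. A match of letters is a description and not evidence of binding, and no match says only that these letters are not in this window.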

How the data were processed

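Each mouse gave 1 RNA sample of distal trachea and carina and 1 Affymetrix Mouse Genome 430 2.0 array. Per the methods, the authors used Partek Genomics Suite 6.5 and robust multichip analysis; the deposited table holds linear intensity values with 1 trimmed mean on all arrays, and how these were made from the scans is not given in the sources used here. The signal was taken to log2 without a floor or filter, and 64 control probe sets were left out. Age was fitted alone with limma 3.58.1 in R 4.3.3 (lmFit and eBayes, two-sided) on all 45037 probe sets, or on 1 probe set per gene, the brightest, for 18173 genes. The second factor of the authors' analysis is not named, so it was not fitted. The number of arrays limits the precision. The fit was tested on simulated data.

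Gene names come from the platform annotation, in which 34945 of the probe sets have 1 symbol, 932 have several and 9160 have none. The 9 members and the gene lists were chosen with earlier results of these data known. Named genes are all members, up to 4 bright genes per list with the smallest p, the 5 nearest profiles, Igha, Ighm and Ptprc. Genes named after their values were seen are either marked where they appear or listed here. Those without a mark in place are Siglech, Scgb1a1, Glycam1, Madcam1, Chst4, Rag1, Rag2, Dntt, Igll1 and Vpreb1. Nothing in the labels says how the mice were housed or bred. Per the methods, the mice of the study came from different commercial sources and were kept in the same room under identical barrier conditions. The source of each mouse used for an array is not given. A p-value sets the difference between ages against the spread between mice of the same age. Alternatives are given in the closing section.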

Additional observations from a re-analysis of the deposited data

Results flagged for a closer look

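In 4 of the 24 groups of 4 mice (12 probe sets at 2 ages) 1 mouse stood apart from the other 3 by Dixon's criterion, which chance meets in about 1 group in 20. Old mouse 6 had a Cd22 (1419768_at) signal of 293, above the other old mice. Young mouse 4 had a Cd72 signal of 157, above the other young mice and still below every old mouse. Young mouse 7 had a Blk signal of 122, above the other young mice and above old mouse 1, and a Pou2af1 signal of 41.8, below the other young mice.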

How the results depend on the processing

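Over the alternatives 206 log2 fold changes of single B cell probe sets were positive and 0 negative, and 196 kept their side of an unadjusted p under 0.05, with 3 that no longer passed and 7 that newly passed. To these comes Cd22 1419769_at with signals raised to 64, where all mice lay at the floor and the difference was 0. With that floor the log2 fold change of Cd79a was 0.27 and that of Ms4a1 1450912_at 0.06. The count of B cell probe sets at an adjusted p under 0.05, 0 with the settings reported, was 3 with a trended and robust prior and 2 among bright probe sets. The count of genes, also 0, was 5 with that prior, 2 among bright probe sets, 1 with array medians centred (Spib), 3 with a floor of 32 (Cd72, Pou2af1 and Spib), 1 with a floor of 64 (Pou2af1) and 0 to 1 when each mouse was left out, with Spib passing without old mouse 1. Among bright probe sets, of which there are 3, 1 passed the fold and unadjusted p and 2 did not overlap between ages. Those 3 were bright by the mean over both ages, and their mean signals in young mice lay below the cut. When each mouse was left out in turn, 5 to 8 probe sets did not overlap, with 8 without old mouse 1, and the median log2 fold change was 0.88 to 1.22. Quantile normalization, array weights, leaving out probe sets prone to cross-hybridisation, averaging a gene's probe sets and mouse numbers 1 to 4 against 5 to 8 as a term kept all counts within 1.5 times the main ones. A fold of 1.5 in place of 2 gave 6 probe sets. Of the values of the other genes and lists under these alternatives, 1131 kept their call, 16 lost it, 23 gained it and 7 uncalled ones moved. No paired analysis was possible because the old and young mice share no numbers. With 4 mice per age and no detection calls, the dim signals of Cd79a, Ms4a1 1450912_at and Cd22 1419769_at limit what can be said of them.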

Other observations

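Among the genes of B cell precursors and germinal centers, of which 10 were measured, 6 had a positive and 4 a negative log2 difference. The median was 0.06 and none passed an adjusted p under 0.05 over all genes in either direction. Rag1, the recombinase of developing lymphocytes, had signals of 46.2, 2.19, 17.5 and 429 in old mice 1, 2, 5 and 6, against 0.984, 2.80, 0.8286 and 0.890 in young mice 3, 4, 7 and 8. Its mean log2 signal was at percentile 2.09 of all probe sets. The single high value was in old mouse 6, which was also the highest in Alas2 and Ppbp. Dntt, the DNA polymerase active in the same cells, was at 94.0, 91.4, 57.4 and 149.7 in old mice, against 63.0, 108.1, 100.4 and 91.0 in young mice. Other precursor genes differed from this. Log2 differences were -0.36 for Rag2, -0.40 for Vpreb1, -0.18 for Vpreb3 and 0.95 (SE 0.72) for Igll1. Among old mice the highest was mouse 2 for Rag2 and Igll1 and mouse 5 for Vpreb3. The relation of these values to the B cell genes was not tested.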
